A study of Mus musculus with 24 samples.

Results

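Cell-cell junction genes were described across 8 tissues of SENCR-BAC transgenic mice. The set took every gene of the table whose symbol placed it among the cadherins (CDH followed by a digit), protocadherins (PCDH), desmosomal cadherins and desmoplakin (DSG, DSC, DSP), genes with catenin symbols (CTNN), claudin symbols, occludin, tight junction proteins (TJP), nectins and connexins (GJA to GJD), with CLDN5 left out. It held 41 of the 7493 genes in the table: 14 protocadherins, 8 cadherins, 6 connexins, 5 genes with a CTNN symbol, 3 nectins, 2 desmosomal genes and 3 genes with tight junction or claudin symbols. Of these, 23 had at least 1 FPKM (fragment counts relative to the length of the gene and the assigned depth of each library) in at least 3 libraries and were tested among 4260 such genes.

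All animals carried the SENCR-BAC transgene, human SENCR being a long non-coding RNA gene of vascular cells delivered on a bacterial artificial chromosome. Bulk RNA libraries were made from brain, liver, lung, stomach, kidney, spleen, heart and aorta, 3 per tissue and 24 in all. The labels name no animals without the transgene and give neither sex nor age nor which libraries share an animal, so tissue was the comparison and p-values measure the spread between these libraries. Reads of mouse RNA had been counted on a human genome build, so a gene's level depends on how much of its mouse sequence aligns there, and levels were compared between tissues within a gene and not between genes.

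Cadherins hold cells together by binding the same molecule on the neighbouring cell. Their tails bind beta-catenin, and alpha-catenin joins that complex to actin, while desmoplakin ties desmosomal cadherins to intermediate filaments. TJP proteins are scaffolds under tight junctions, and connexins form the gap junction channels through which ions and small molecules pass between coupled cells; neurons, hepatocytes, muscle and epithelia each use their own assortment of these proteins.

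Promoter sequence is shown for 3 members whose levels stood apart in liver, brain and aorta, Gjb1, Gjd2 and Pcdh7. Each sequence is the 250 bases before an annotated RefSeq start in build GRCm38.p6, read 5′ to 3′. The Gjb1 window lies at chrX:101376985-101377234 on the plus strand and is the one of its annotated windows that holds GTTAAT, a core of the site known for the hepatic factor HNF1; the match is in capitals and begins 48 bases before the start. The Gjd2 window lies at chr2:114013620-114013869 on the minus strand and the Pcdh7 window at chr5:57717831-57718080 on the plus strand.
Gjb1: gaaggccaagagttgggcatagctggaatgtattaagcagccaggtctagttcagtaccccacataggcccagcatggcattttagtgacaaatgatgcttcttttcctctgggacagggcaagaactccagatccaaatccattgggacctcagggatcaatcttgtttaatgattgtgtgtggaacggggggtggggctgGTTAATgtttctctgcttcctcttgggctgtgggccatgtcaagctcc
Gjd2: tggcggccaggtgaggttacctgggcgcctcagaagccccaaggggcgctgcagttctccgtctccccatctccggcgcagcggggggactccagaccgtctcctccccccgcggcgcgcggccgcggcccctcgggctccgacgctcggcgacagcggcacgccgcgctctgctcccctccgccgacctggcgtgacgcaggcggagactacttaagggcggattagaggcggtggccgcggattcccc
Pcdh7: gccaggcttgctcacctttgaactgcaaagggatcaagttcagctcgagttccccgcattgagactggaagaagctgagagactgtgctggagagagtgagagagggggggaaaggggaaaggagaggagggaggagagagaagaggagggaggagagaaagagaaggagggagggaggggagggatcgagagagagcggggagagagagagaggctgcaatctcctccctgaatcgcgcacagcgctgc
GTTAAT or its reverse complement occurred in 6.43% of 32851 promoter windows of this length and in 3 of the 32 windows found for 25 of the 41 members, those of Cdh18, Gjb1 and Nectin2. The core motif of the neuronal repressor REST, searched on both strands, occurred in 0.0457% of windows, and the CArG box of muscle genes in 1.47%; none of the 32 member windows held either, those of Gjd2 and Pcdh7 included. These matches describe letters in a window and were not tied to binding.

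Depth set how far down the genes could be followed. Whole reads recovered from the FPKM steps totalled 177909 to 613544 per library, lowest in liver and highest in brain. The 41 members held 35267 of these reads over all libraries, of which CTNNB1 took 50.0%. Members with at least 1 read numbered 26 to 31 in brain libraries, 16 to 26 in aorta and 8 to 11 in liver; at the depth of the shallowest library 22.3 to 24.5, 13.6 to 18.6 and 7.99 to 10.8 would be expected. The aortic libraries were unequal, since 11 members were above 0 in aorta replicate 1 and in neither other aortic library, all at 0.149 to 1.11 FPKM, and that library held 363 reads of mitochondrially encoded genes against 6 and 216 in aorta replicates 2 and 3.

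Of the 23 tested members, 15 were called higher in 1 tissue than in each of the other 7: 9 in brain, 3 in lung, 2 in aorta and 1 in liver. A gene was called where limma gave an adjusted p below 0.05 and the groups differed by 1 or more in log2(FPKM + 1), a scale that understates the change of low genes. Over all genes tested the share so called was 24.1%, with 13.2% in brain, 1.27% in lung, 1.64% in aorta and 1.92% in liver. All 9 brain genes (CDH8, CDH18, CTNNA2, CTNND2, GJD2, PCDH8, PCDH9, PCDH10 and PCDHGC4) reached 1 FPKM in fewer than 3 libraries outside brain. They passed the filter on low values only with brain, so they had to differ there, and their brain values and tests below are a description. Among the 14 members that needed no single tissue to pass, 6 were called higher in a tissue than in each other (CDH11, GJB1, GJC1, PCDH7, PCDH18 and TJP1), beside 16.5% of 3460 such genes. In bulk tissue, fewer cells of a type and less RNA per cell cannot be told apart.

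**Figure D1:**
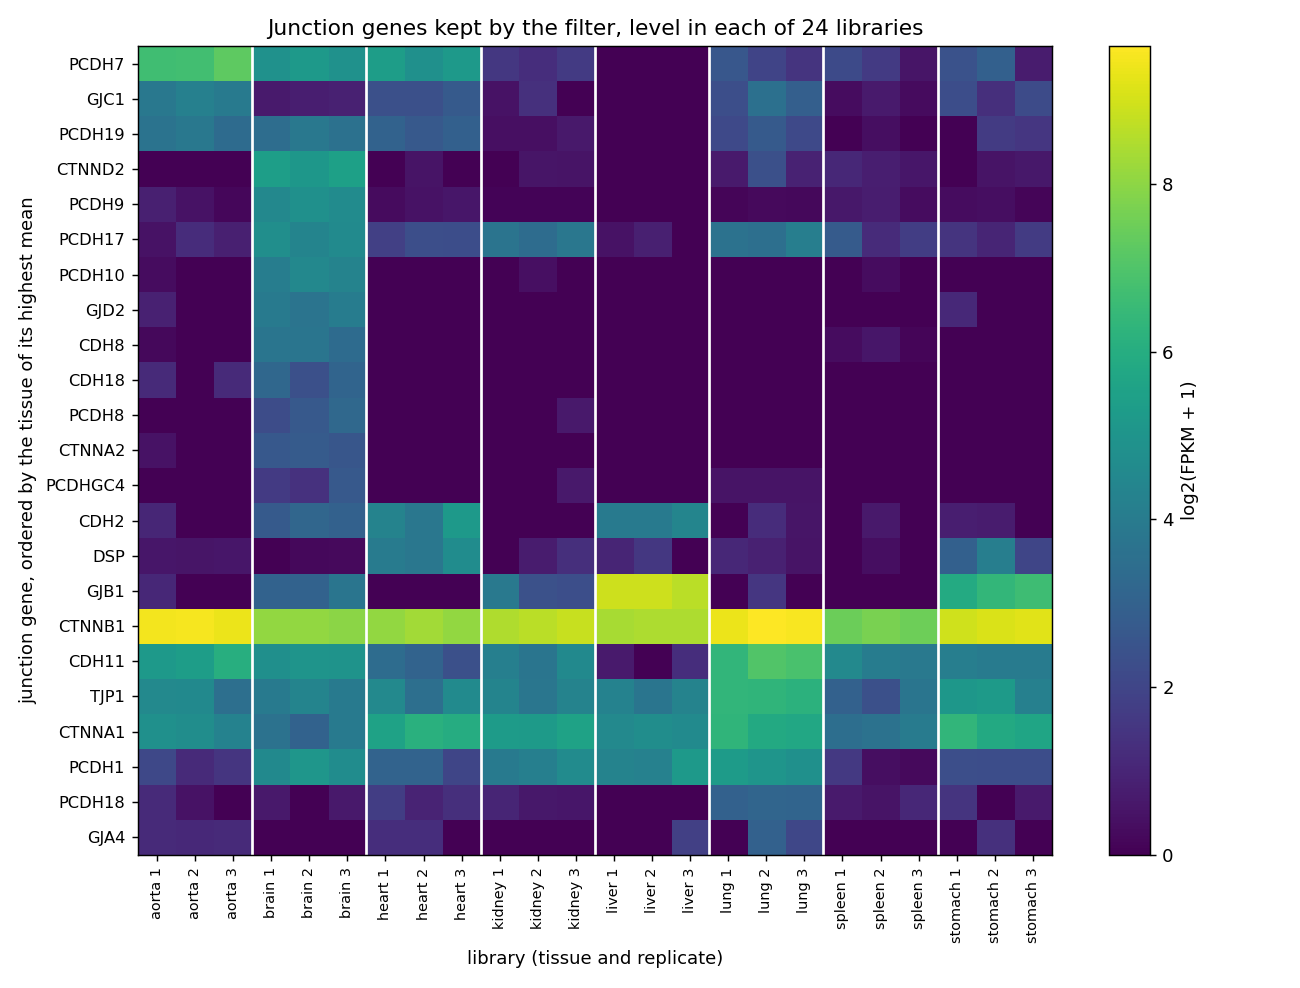
Level of the 23 tested junction genes in each of the 24 libraries as log2(FPKM + 1), with genes ordered by the tissue of their highest mean and white lines between tissues. CTNNB1 is high in every library, GJB1 stands out in liver and stomach, and a block of 10 genes is brightest in brain.

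Of all members tested, GJB1 had the largest difference between a tissue and the rest. This gene, the connexin of hepatocytes and of myelinating glia, had 481, 483 and 399.8 FPKM in liver, against 58.4, 81.9 and 99.1 in stomach, 7.15, 7.18 and 12.4 in brain and 13.9, 4.32 and 3.98 in kidney. Every liver library lay above every library of the other tissues, and every stomach library above those of the 6 tissues other than liver. Single libraries of lung and aorta had 1.86 and 1.11 FPKM, the others there were at 0, and the gene was listed at 0 in all libraries of heart and spleen. Liver held 82.4% of the sum of the 8 tissue means.

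The liver libraries averaged 455 ± 47.5 FPKM (SD, n = 3), on 611 reads, and lay 6.92 ± 0.33 (SE) above the other tissues in log2(FPKM + 1) (limma adjusted p = 1.74e-12). Against stomach alone (79.8 ± 20.5 FPKM, 154 reads) the difference was 2.52 ± 0.43 (adjusted p = 0.000137, limma); with a pseudocount of 0.1 it was 2.54 and the call was lost (limma adjusted p = 0.0598). Stomach in turn was 4.04 above the mean of the other 7 (limma adjusted p = 1.31e-08). Brain and kidney, with 8.92 ± 3.04 and 7.40 ± 5.64 FPKM, did not pass against the mean of the others (differences of 0.57 and 0.12) nor against each other (0.39, limma adjusted p = 0.522). Hepatocyte markers (8 of 8 in the table) summed to 2152 to 2475 FPKM in liver libraries and to 0 to 31.3 in stomach. HAO1 made up most of the liver sum, with 1985, 1766 and 2063 FPKM, while APOA1 and TTR were at 0 there, and ALB had 0, 0 and 2.26 FPKM in liver, against 11.6, 0 and 27.5 in aorta. HAO1, a liver enzyme, was at 16.9 FPKM in stomach replicate 3, the stomach library highest in GJB1, and at 0 in stomach replicates 1 and 2; GJB1 was at 58.4 and 81.9 FPKM in those libraries without HAO1. In brain, oligodendrocyte markers (5 of 9 in the table) summed to 8496 to 12071 FPKM, against at most 97.7 in any other library, and their part in the GJB1 level was not tested.

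**Figure D2:**
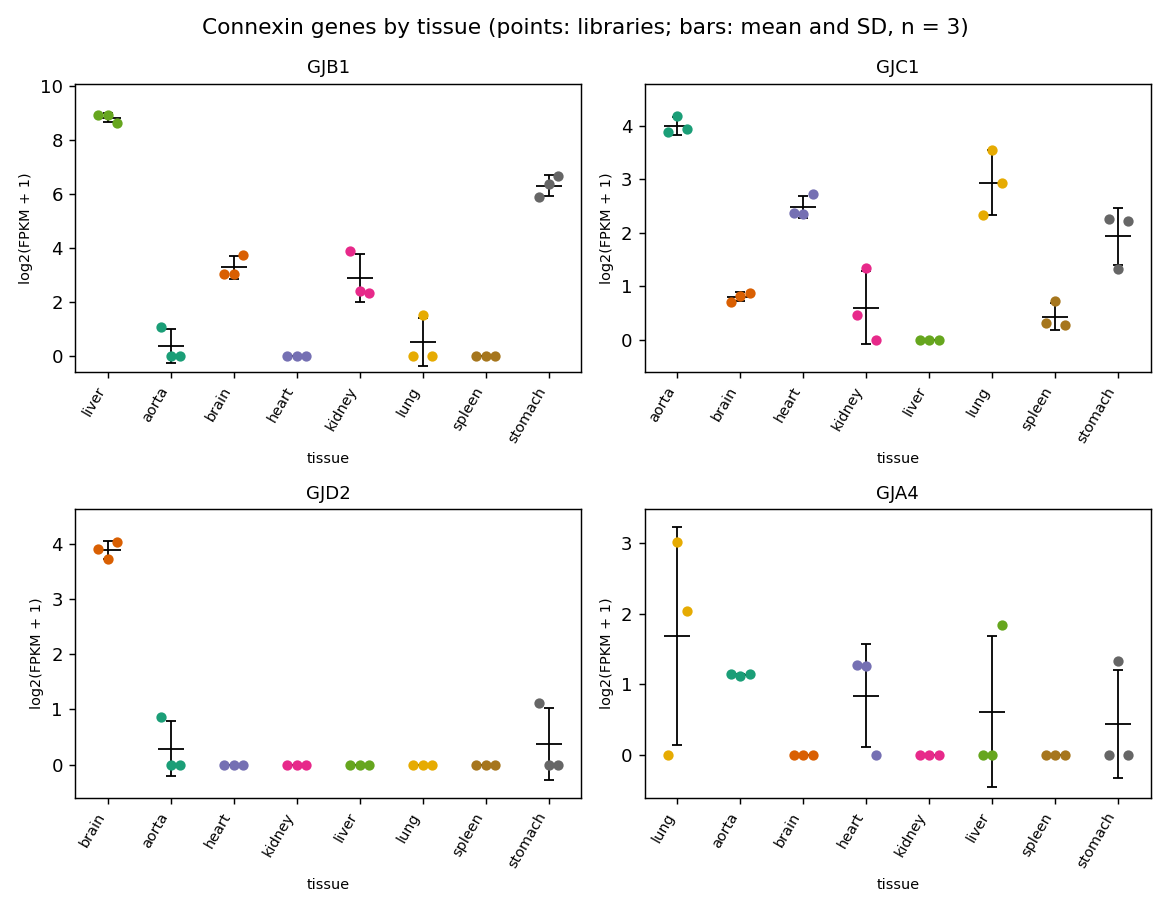
Levels of 4 connexin genes as log2(FPKM + 1) in each tissue, with the tissue of the highest mean on the left of each panel; points are libraries, bars are the mean and SD of 3 libraries. GJB1 peaks in liver, with stomach next, GJC1 in aorta and GJD2 in brain, while the 3 lung libraries of GJA4 spread from 0 to 7.06 FPKM.

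GJC1, a connexin of vascular smooth muscle and of the cardiac conduction system, had 13.7, 17.2 and 14.3 FPKM in aorta, against 4.01, 10.7 and 6.67 in lung and 4.16, 4.11 and 5.63 in heart. All aortic libraries lay above all others, and liver libraries were listed at 0. Aorta was 2.69 ± 0.27 (SE) above the mean of the other tissues (limma adjusted p = 1.44e-07), but only 1.06 ± 0.35 above lung (limma adjusted p = 0.0430), and the call against lung or heart was lost in 15 of 31 alternative fits. Lung was itself called higher, by 1.47 (limma adjusted p = 0.000262), and kidney, liver and spleen lower. Smooth muscle markers (4 of 7 in the table) summed to 221 to 302 FPKM in aorta and to 193 to 254 in stomach, where GJC1 averaged 2.98 ± 1.30 FPKM (SD, n = 3). ACTG2 carried most of the stomach sum, with 212, 192 and 165 FPKM, against 53.0, 55.7 and 75.6 in aorta, while ACTA2 had 53.3, 47.6 and 44.0 FPKM in aorta and 1.89, 4.99 and 2.05 in stomach, and SMTN and MYH11 were also lower in every stomach library than in any aortic one. The part of these markers in the aortic level was not tested.

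GJD2, the main connexin of electrical synapses between neurons, had 14.1, 12.2 and 15.6 FPKM in brain and was at 0 in all but 2 of the 21 other libraries, with 0.825 in aorta replicate 1 and 1.17 in stomach replicate 1. Brain held 95.5% of its summed tissue means and lay 3.80 ± 0.19 above the mean of the others (limma adjusted p = 4.45e-13). GJA4, a connexin of arterial endothelium, had 0, 7.06 and 3.12 FPKM in lung, against 1.21, 1.16 and 1.21 in aorta and 1.41, 1.39 and 0 in heart. The lung libraries overlapped those of aorta and heart, and rested on 10 reads. The lung difference of 1.25 ± 0.44 passed narrowly (limma adjusted p = 0.0338), but in 8 of 31 alternative fits the call was lost, and without lung replicate 2 the difference was 0.59 (limma adjusted p = 0.401 there, 0.000765 to 0.401 over all 31). Endothelial markers (5 of 11 in the table) summed to 23.4 to 33.3 FPKM in lung and to at most 10.01 in aorta. TEK carried most of the lung sum, with 18.6, 12.7 and 20.5 FPKM, and ERG had 3.45, 8.01 and 9.25. KDR and SOX18 had at most 1.49 and 1.16 FPKM in lung and were at 0 in aorta. The part of these markers in the GJA4 level was not tested. GJA1, the most widespread connexin of mammalian tissues, was seen only at 0.754 FPKM in aorta replicate 2 and 0.976 in stomach replicate 2 and fell below the filter.

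Brain had the most members called higher. Against the mean of the other 7 tissues, 14 of 23 were higher in brain, where 23.9% of all genes tested were, and 2 were lower, where 10.5% of all genes were. Leaving out every gene that needed brain to pass the filter, 5 of 14 members were higher (CDH2, PCDH1, PCDH7, PCDH17 and PCDH19), beside 17.6% of 3864 genes, and the median difference was 0.13 for these members and -0.14 for these genes. Neuronal markers (8 of 8 in the table) summed to 7642 to 8831 FPKM in brain and to at most 49.6 in any other library, and their part in these results was not tested.

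The cadherins CDH8 and CDH18, adhesion molecules known from neural circuits, were both high in brain. CDH8 had 12.6, 12.5 and 9.27 FPKM in brain, at most 0.482 in the 3 spleen libraries and 0.149 in aorta replicate 1, and was at 0 in the remaining libraries. CDH18 had 8.43, 4.10 and 7.62 FPKM in brain, 1.21, 0 and 1.21 in aorta, and 0 in all others. Brain did not overlap any other tissue for either gene, and the differences were 3.57 ± 0.11 for CDH8 (limma adjusted p = 3.31e-16) and 2.79 ± 0.19 for CDH18 (limma adjusted p = 4.19e-11).

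Among the catenins, CTNNA2, the alpha-catenin of neurons, and CTNND2, a neuronal delta-catenin that binds the cadherin tail, followed the same tissue. CTNNA2 had 5.37, 5.87 and 4.98 FPKM in brain and 0 elsewhere except 0.396 in aorta replicate 1. CTNND2 had 41.7, 33.4 and 43.5 FPKM in brain, against 0.633, 4.12 and 0.910 in lung. No library of another tissue reached the brain levels of either gene. The brain differences were 2.65 ± 0.10 for CTNNA2 (limma adjusted p = 5.83e-15) and 4.90 ± 0.25 for CTNND2 (limma adjusted p = 5.80e-13), and CTNND2 lay well clear of lung, its next tissue.

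Protocadherins, cadherin relatives that sort neurons and their contacts, gave 8 of the 14 brain calls. PCDH10 had 15.9, 21.6 and 18.7 FPKM in brain and 0 to 0.307 elsewhere; PCDH9 had 21.8, 27.8 and 23.9 in brain and 0 to 0.814 elsewhere. Both separated brain from every other library, by 4.25 ± 0.13 (limma adjusted p = 1.02e-16) and 4.37 ± 0.15 (limma adjusted p = 1.21e-15) against the mean of the others. PCDH8, an activity-induced protocadherin of synapses, had 3.72, 5.50 and 8.61 FPKM in brain, and elsewhere a single kidney library was above 0, at 0.566. PCDHGC4, 1 of the gamma-cluster isoforms, had 2.09, 1.58 and 5.46 FPKM in brain, against 0.439, 0.408 and 0.421 in lung. Brain was above all other libraries for both, by 2.70 ± 0.15 for PCDH8 and 1.79 ± 0.18 for PCDHGC4 (limma adjusted p = 2.63e-12 and 2.77e-08). Isoforms of the gamma and alpha clusters share their constant exons, so the assignment of reads among them is uncertain; without brain replicate 3 the PCDHGC4 difference to lung was 0.99, just under 1.

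**Figure D3:**
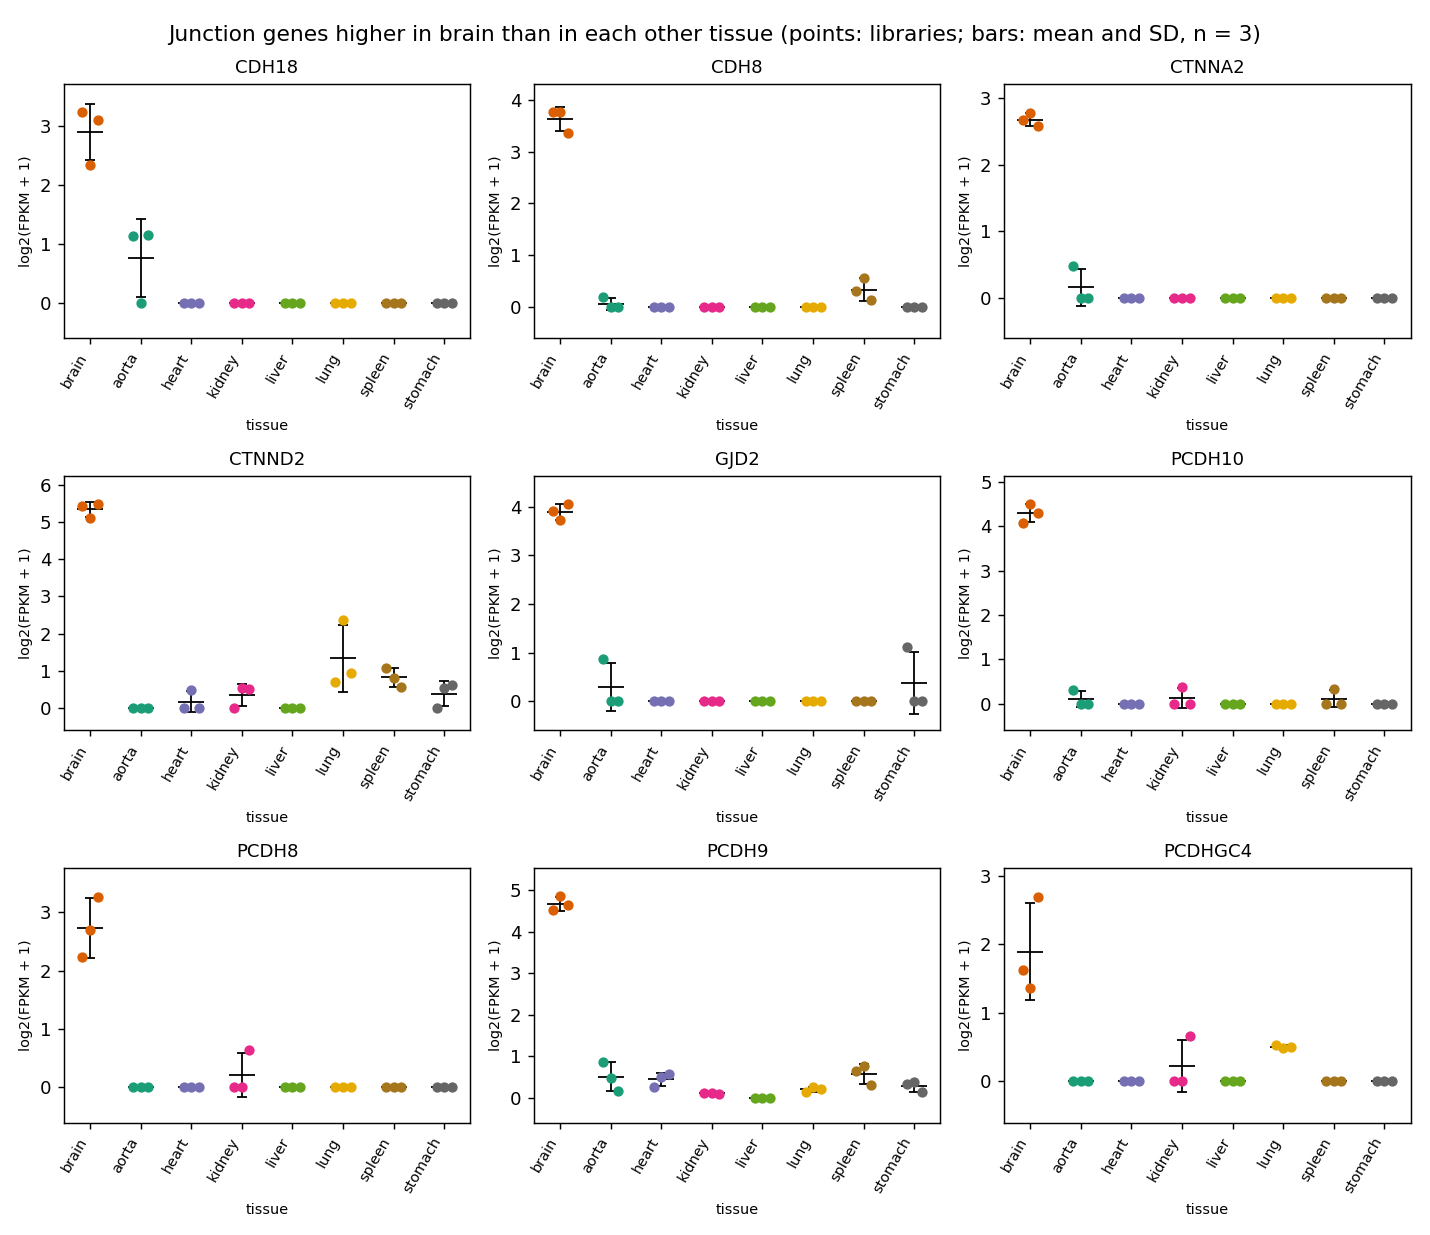
Levels of the 9 junction genes called higher in brain than in each other tissue, as log2(FPKM + 1), with brain on the left; points are libraries, bars are the mean and SD of 3 libraries. The 3 brain libraries lie above all 21 others in every panel, with the widest spread in PCDHGC4, from 1.58 to 5.46 FPKM. All 9 genes were picked by that call, made for 13.2% of all genes tested, and passed the filter only with brain. Their separation is therefore a description.

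The other protocadherins high in brain were shared with further tissues. PCDH17 had 26.3, 19.6 and 23.8 FPKM in brain, against 11.6, 10.6 and 16.5 in lung and 12.1, 9.64 and 13.2 in kidney. Brain libraries lay above all others, by 2.57 ± 0.27 over the mean of the tissues (limma adjusted p = 5.21e-08), although the step to lung of 0.82 did not pass (limma adjusted p = 0.0669). PCDH1, a protocadherin of airway and other epithelia, had 38.6, 32.1 and 27.8 FPKM in lung, 23, 33 and 24.9 in brain, 19.2, 17.6 and 36.4 in liver and 14.9, 17.1 and 24 in kidney. Lung, brain and liver overlapped, as did brain, liver and kidney, while every lung library lay above every kidney library. Each of these 4 tissues was called higher, by 2.07, 1.76, 1.53 and 1.16 (limma adjusted p = 1.32e-05, 2.43e-05, 0.000179 and 0.00326), whereas aorta, spleen and stomach were lower.

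PCDH7, a protocadherin known from brain and heart, had the largest aortic difference of the members. It had 103, 104 and 151 FPKM in aorta, against 40.9, 27.8 and 35.3 in heart, 28.3, 36.5 and 28.6 in brain and 0 in all liver libraries. Aorta lay above every other library, 4.44 ± 0.34 above the mean of the other tissues (limma adjusted p = 5.10e-09) and 1.75 ± 0.46 above heart (limma adjusted p = 0.00566). Brain and heart were also called higher, and kidney, liver, lung, spleen and stomach lower. PCDH19, named here after its values were seen, had 11.9, 13.6 and 9.40 FPKM in aorta, 9.88, 13.7 and 11.2 in brain and 7.20, 5.40 and 6.72 in heart; aorta and brain overlapped, and all 3 tissues were called higher. In aorta 4 of 23 members were higher (CDH11, GJC1, PCDH7 and PCDH19; 9.58% of all genes) and 5 lower (CDH2, CTNND2, GJB1, PCDH1 and PCDH17; 8.19% of all genes). The call of PCDH7 over heart was lost with TPM scaling (1.51, limma adjusted p = 0.0690) and with a pseudocount of 0.1 (1.78, limma adjusted p = 0.0561). Without aorta replicates 1 and 3 the PCDH7 differences were 1.58 over heart and 1.72 over brain, short of the threshold (limma adjusted p = 0.123 and 0.0589), and 3 members were lower; that fit has a single aortic library, which is assumed to vary like the other tissues. Fibroblast markers (7 of 7 in the table) summed to 500 to 542 FPKM in aorta and to at most 142 in any other library. COL1A1, TWIST1 and FBLN5 carried the aortic sum, with at least 99.8 FPKM in each aortic library. COL1A2, COL3A1 and DCN had at most 1.83, 0.440 and 0.331 FPKM in aorta, and PDGFRA was at 0 there. The part of these markers in the aortic levels was not tested.

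In lung 9 of 23 members were higher, where 11.9% of all genes tested were, and 3 were lower, where 3.64% were. CDH11, a cadherin of mesenchymal cells, had 81.6, 129.6 and 117 FPKM in lung, against 34.8, 40.7 and 65.9 in aorta, 27.2, 30.5 and 30.2 in brain and 0.635, 0 and 1.37 in liver. Lung libraries lay above all others and liver libraries below all others, 2.98 ± 0.25 above (limma adjusted p = 2.04e-08) with a liver difference of -4 ± 0.25 (limma adjusted p = 1.05e-10). The step to aorta was 1.22 ± 0.33 (limma adjusted p = 0.0119), and this call was lost in 5 of 31 alternative fits.

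TJP1, the scaffold that joins tight junction proteins to actin, had 80.7, 77.7 and 72.6 FPKM in lung, against 33.7, 36.8 and 17.4 in stomach and 7.07, 4.08 and 12.5 in spleen. The 3 lung libraries lay above all others, by 2.18 ± 0.28 over the mean of the other tissues (limma adjusted p = 5.92e-06), while aorta, brain, heart, kidney and liver averaged 16.2 to 18.9 FPKM with no step between them that passed. PCDH18 had 6.90, 7.76 and 7.66 FPKM in lung, against 2.35, 0.930 and 1.43 in heart, and was listed at 0 in liver. Lung was 2.43 ± 0.26 above the mean of the others (limma adjusted p = 5.27e-07) and above heart by 1.75 (limma adjusted p = 0.000352). Lung epithelial markers (2 of 7 in the table, NKX2-1 and FOXJ1) summed to 208 to 228 FPKM in lung. Cardiomyocyte markers (7 of 8) summed to 925 to 1240 FPKM there and skeletal muscle markers (6 of 8) to 31.0 to 128. ACTC1 carried most of the cardiomyocyte sum, with 1192, 909 and 1013 FPKM. MYH6 had 42.0, 12.9 and 34.3 FPKM and ACTN2 had 5.98, 1.59 and 3.28. TNNC1 was at 0 in lung, TNNT2 had 0, 1.31 and 0 FPKM, and RYR2 and TTN had at most 0.363 and 0.103. The part of these marker lists in the lung levels was not tested.

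**Figure D4:**
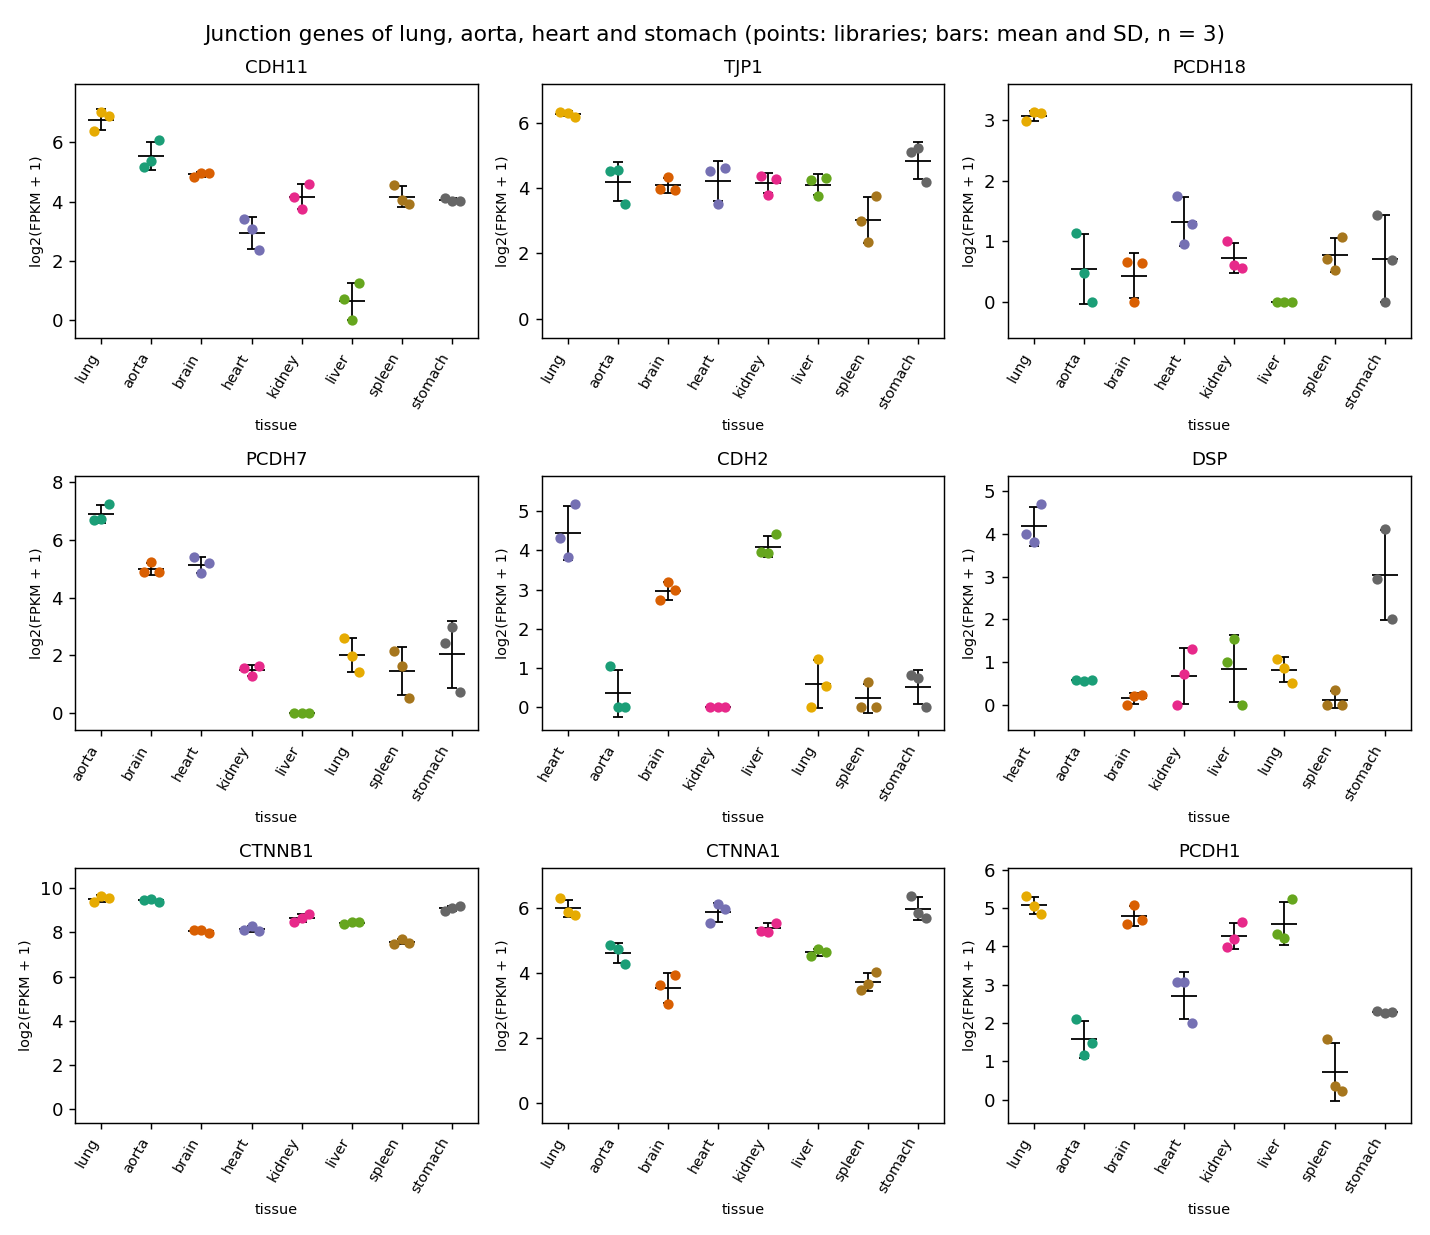
Levels of 9 junction genes that are high in lung, aorta, heart or stomach, as log2(FPKM + 1), with the tissue of the highest mean on the left of each panel; points are libraries, bars are the mean and SD of 3 libraries. CDH11, TJP1 and PCDH18 peak in lung, PCDH7 in aorta and DSP and CDH2 in heart, while CTNNB1 spans a narrow range.

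Desmoplakin and N-cadherin, proteins of the intercalated discs that join cardiomyocytes, were called higher in heart, and each was also high in another tissue. DSP had 15.1, 13.2 and 25.0 FPKM in heart, against 6.70, 16.4 and 3.06 in stomach and at most 1.92 in any other library. Heart and stomach overlapped (difference 1.15, limma adjusted p = 0.0601), and both were called higher, by 3.29 ± 0.34 in heart (limma adjusted p = 1.96e-07) and 1.98 ± 0.34 in stomach (limma adjusted p = 0.000185). CDH2, the gene of N-cadherin, had 19.0, 13.3 and 35.4 FPKM in heart, 14.6, 14.2 and 20.3 in liver and 5.63, 8.14 and 6.98 in brain, against at most 1.32 in any library of the remaining tissues. Heart and liver overlapped and did not differ past the threshold (0.35, limma adjusted p = 0.595); the differences from the mean of the other tissues were 3.20, 2.80 and 1.51 in heart, liver and brain, all called. In heart 5 of 23 members were higher (CDH2, CTNNA1, DSP, PCDH7 and PCDH19; 6.41% of all genes) and 3 lower (CDH11, CTNND2 and GJB1; 17.4% of all genes). The lower count in heart ranged from 1 with median-ratio scaling to 6 with a pseudocount of 0.1 or with limma voom, whereas the 17.4% belongs to the fit as reported.

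The widely shared catenins had the smallest ratios of highest to lowest tissue mean, 3.91 for CTNNB1 and 5.76 for CTNNA1. CTNNB1, beta-catenin, which also carries Wnt signals to the nucleus, had 661, 801 and 749 FPKM in lung, 713, 727 and 657 in aorta, 497, 548 and 586 in stomach and 179, 206 and 180.3 in spleen. Lung and aorta overlapped, and spleen lay below every other library. Lung was called higher by 1.04 ± 0.08 (limma adjusted p = 5.09e-09) and spleen lower (difference -1.20 ± 0.08, limma adjusted p = 2.89e-10); the lung difference was 0.80 under median-ratio scaling and 0.98 without lung replicate 2, short of 1. CTNNA1, the widespread alpha-catenin, had 77.6, 57.6 and 54.4 FPKM in lung, 81.4, 56.7 and 50.6 in stomach and 45.6, 68.1 and 61.0 in heart, against 10.2, 11.5 and 15.2 in spleen and 11.4, 7.18 and 14.3 in brain. The first 3 tissues overlapped and were called higher, by 1.17, 1.15 and 1.04, and the other 2 lower, with differences of -1.42 and -1.63 (limma adjusted p of 0.000135 or less for all 5). Brain, the lowest tissue for CTNNA1, was the highest for CTNNA2. Under median-ratio scaling the lung difference of CTNNA1 was 0.93.

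In stomach 3 of 23 members were higher (CTNNA1, DSP and GJB1; 7.65% of all genes) and 4 lower (CDH2, PCDH1, PCDH7 and PCDH17; 5.87%). Epithelial markers (7 of 10 in the table) summed to 64.1 to 99.4 FPKM in stomach, with EPCAM, KRT18 and KRT19 at 0, and to at most 20.5 in any other library, and their part was not tested. In kidney 2 were higher (PCDH1 and PCDH17; 9.77%) and 4 lower (CDH2, GJC1, PCDH7 and PCDH19; 8.12%). In liver 3 were higher (CDH2, GJB1 and PCDH1; 9.81%) and 7 lower (CDH11, CTNND2, GJC1, PCDH7, PCDH17, PCDH18 and PCDH19; 17.3%); liver libraries were also the shallowest.

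Spleen had the most members called lower. None of 23 members was called higher by limma or by limma voom on recovered reads, and 0 had an unadjusted p under 0.05 in that direction, where 11.5% of all genes tested were called higher. A count of 10 was lower, 43.5% of the members, where 13.5% of all genes were: CDH2, CTNNA1, CTNNB1, DSP, GJB1, GJC1, PCDH1, PCDH7, PCDH19 and TJP1. The median difference was -0.65 for members and -0.14 for all genes. TJP1 (difference -1.53, limma adjusted p = 0.00019) and PCDH1 (difference -2.89, limma adjusted p = 1.02e-07) were among the lower ones, PCDH1 with 2.01, 0.274 and 0.173 FPKM in spleen. Leukocyte markers (4 of 8 in the table) summed to 160 to 338 FPKM there, with CD3E at 0, and their part was not tested.

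**Figure D5:**
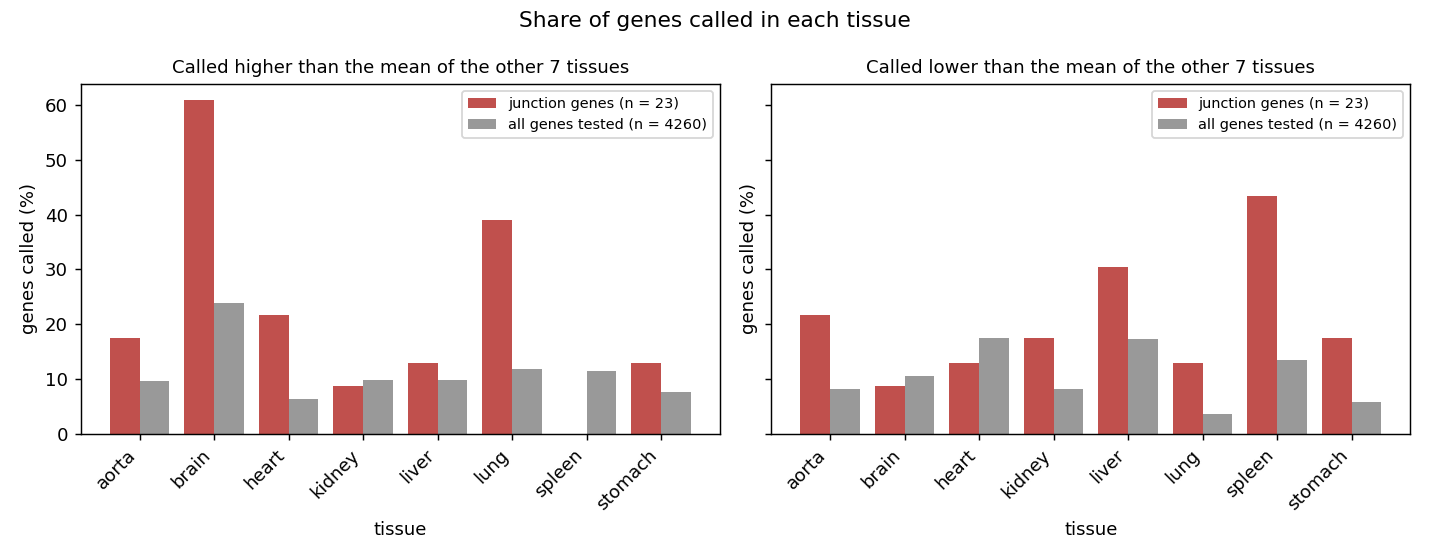
Share (%) of the 23 tested junction genes (red) and of all 4260 tested genes (grey) called higher (left) or lower (right) in each tissue than the mean of the other 7, by limma. The members' bars are tallest in brain on the left, 60.9% against 23.9% of all genes, and in spleen on the right, 43.5% against 13.5%, and there is no member's bar for spleen on the left; 9 of the 14 members called higher in brain passed the filter only with brain.

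The 18 members below the filter peaked at tissue means of 0.0402 to 1.25 FPKM, and 7 of them had reads in a single library. Among them were CDH6, CDH7, CDH13, CDH22, DSG2, CLDND1, CTNNBL1, GJA1, NECTIN1, NECTIN2, NECTIN3, PCDH11Y, PCDHA4, PCDHA5, PCDHAC2 and PCDHGC3. NECTIN1, an immunoglobulin-like adhesion molecule of adherens junctions, had 2.18 and 1.57 FPKM in liver replicates 1 and 3 and 0 in liver replicate 2. NECTIN2 had 0.707 FPKM in aorta replicate 1 alone, and NECTIN3 0.158 and 0.137 in aorta replicate 2 and lung replicate 2. CLDND1, which is not a classical claudin, had at most 1.22 FPKM. Members at such levels cannot be ranked between tissues at this depth. How far low alignment of mouse reads to the human build lowered them was not tested. CTNNBL1, despite its symbol, belongs to a splicing complex and not to junctions.

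Other junction genes, from a list of adhesion scaffolds, plakophilins, pannexins and polarity proteins, were read for comparison: 22 of 48 were in the table and 13 were tested. Of these 13, 5 were higher and 2 lower in brain (23.9% and 10.5% of all genes). Lung had 4 higher and 1 lower (11.9% and 3.64%), and aorta 3 higher and 5 lower (9.58% and 8.19%). Spleen had 0 higher and 6 lower (11.5% and 13.5%), and heart 0 higher and 4 lower (6.41% and 17.4%). Kidney had 2 higher and 1 lower (9.77% and 8.12%), and liver 1 higher and 3 lower (9.81% and 17.3%). Stomach had 3 higher and 1 lower (7.65% and 5.87%). CLSTN3, a calsyntenin of synapses, averaged 234 ± 11.4 FPKM in brain (SD, n = 3), 7.32 above the mean of the others (limma adjusted p = 2.01e-11), and PANX2, a pannexin of neurons, 53.1 ± 8.07 FPKM, 5.66 above. PANX2 passed the filter only with brain, so it had to differ there. The same held for FAT1 in aorta and PKP1 in stomach, named here for the filter alone. Both were called higher in those tissues. The counts higher in brain, aorta and stomach thus each include a call of this kind. MAGI2, a synaptic and junctional scaffold, was 3.16 above in brain (limma adjusted p = 2.80e-11), and PARD3, a polarity protein, 3.09 above in liver (limma adjusted p = 2.13e-06). VCL, vinculin, which anchors actin at adhesion sites, was lower in brain (difference -2.81), and PKP4, an armadillo protein of junctions, lower in spleen (difference -3.00; limma adjusted p = 3.11e-10 and 1.63e-11).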

How the data were processed

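Members and gene lists were chosen with earlier results of these data known. RNA was extracted with TRIzol and made into libraries with a VAHTS kit, per the labels' protocols. The submitters' processing notes name fastp, HISAT2, HTSeq and the human build GRCh38.p13; the sources used here give no versions, annotation or strand setting. Values were deposited by the authors as FPKM. Whole reads were recovered from the FPKM steps for 7490 of 7493 genes (tolerance 1e-06) and served for depth and as an alternative; rows that share a factor are under-counted. limma 3.58.1 (R 4.3.3), with a mean-variance trend, was fitted to log2(FPKM + 1) of the 4260 genes with at least 1 FPKM in 3 libraries, as 8 tissue means. Benjamini-Hochberg adjustment ran over all these genes within each contrast. On simulated data for brain against the others (4257 genes), 2-fold changes were recovered in 13% of 100 genes and 4-fold changes in 93% of 100, with 5 unchanged genes called. Calls there needed only a limma adjusted p below 0.05, not a difference of 1. The simulated spread was a fixed value not estimated from these libraries, so these rates do not describe the calls reported. Replicates correlated at r = 0.939 to 0.965 across genes, and no pair of libraries matched within sampling noise. Genes named were GJB1, the 4 of each family with the highest tissue mean, every gene called higher in a tissue than in each other, and the 6 largest differences of the other junction list. Promoters were RefSeq windows in GRCm38.p6. Alternatives were a pseudocount of 0.1, no filter, TPM and median-ratio scaling, a replicate block and each library left out; added after seeing the data were leaving out aorta replicates 1 and 3, and limma voom on recovered reads. Some members below the filter are not reported here.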

Additional observations from a re-analysis of the deposited data

How the results depend on the processing

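No named gene changed direction in its highest tissue under any alternative run. That tissue was picked from these same values, so a change of direction was unlikely from the start. Over 31 alternatives and the 22 named genes in their highest tissues, 671 results kept their call and 11 did not: 8 for GJA4, 2 for CTNNB1 and 1 for CTNNA1, all in lung. The 22 include the 9 brain genes that passed the filter only with brain and had to differ there, so the 671 do not measure robustness. Counts called lower moved most, and the causes were not tested. The count lower in heart was 3, against 6 with a pseudocount of 0.1, 5 with TPM scaling, 1 with median-ratio scaling and 6 with limma voom. With limma voom 5 were lower in brain, 8 in lung, 17 in spleen and 1 in stomach. With TPM scaling 5 were lower in lung, and with a pseudocount of 0.1, 12 in liver. The shares of all genes given above belong to the fit as reported. The counts under the alternatives show only how the members' calls moved and are not set against all genes. Without aorta replicates 1 and 3 together 3 were lower in aorta, in a fit whose single aortic library is assumed to vary like the other tissues. The count higher in kidney was 1 with median-ratio scaling and 1 to 2 with a library left out, 1 without kidney replicate 3. Genes called higher in a tissue than in each other numbered 15, 10 with a pseudocount of 0.1, 12 without aorta replicates 1 and 3, and 13 to 16 with a library left out. Of these 15, 8 kept the call in all 31 fits, all of them in brain and in need of brain to pass the filter; GJC1 lost it in 15, CDH11 in 5, PCDH7 in 3, and GJB1, PCDH18, PCDHGC4 and TJP1 in 1 each. Against stomach, GJB1 in liver had a difference of 2.54 (limma adjusted p = 0.0598) with a pseudocount of 0.1. TPM scaling shifted the median of all genes by 0.30 in brain and -0.22 in aorta, and median-ratio scaling by 0.34 in heart and -0.18 in lung.

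Same-numbered libraries of different tissues had correlations of their deviations from the tissue means between -0.0589 and 0.128 (median 0.0241, 84 pairs), so the numbers were not taken to pair samples; the replicate block gave 15 such genes and 14 higher in brain, as without it. Liver libraries held the fewest reads, so members listed at 0 there could still carry up to 3 reads' worth in a library, counting error only.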
